A study of Mus musculus with 12 samples.

Results

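The genes described here encode secreted proteins of the extracellular matrix that signal to cells, and part of the system that cuts that matrix: the CCN proteins Ccn1, Ccn2 and Ccn3, thrombospondin 1 (Thbs1), the metalloproteinase inhibitor Timp1 and tissue plasminogen activator (Plat). They were measured in the mouse hippocampus by 7 probe sets of the 12422 tested, and are 6 genes on an array that gave 8251 genes a probe set of their own. Members were chosen by gene symbol with earlier results of these data known: 6 probe sets carried a member's symbol alone, 2 of them for Timp1, and a probe set annotated to both Pald1 and Thbs1 was added for Thbs1. Its signal cannot be assigned to either of its 2 genes. Matricellular proteins are secreted into the matrix without building it, and act by binding integrins, proteoglycans and growth factors. Ccn1 is a classical immediate early gene, one whose transcription starts within minutes of a stimulus without new protein synthesis. In the brain, thrombospondins from astrocytes promote the formation of synapses, and tissue plasminogen activator is released by active neurons and turns plasminogen into plasmin, while Timp1 blocks the metalloproteinases that digest matrix.

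Hippocampal total RNA was hybridised to 12 arrays of the Affymetrix type MG-U74A, with 3 arrays in each group. The 4 groups were mutants given kainate, mutants given saline, controls given kainate and controls given saline. The mutants had lost CREB and CREM, transcription factors that act on genes with cAMP response elements, and the series asked how that loss changes gene expression induced by kainate, a glutamate receptor agonist that evokes seizures. Kainate (20 mg/kg) or saline was injected into the abdomen of littermate males and females aged 5 to 6 weeks, and the hippocampus was taken 1 hour later. An array held a pool of 3 animals' RNA, and tests measure the spread between pools. How and in which cells the genes were disrupted, and which alleles the controls carried, is not given in the labels. All levels are the authors' log2 values, in which a difference of 1 is a doubling, and levels of different probe sets are not set against each other.

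Correlations between arrays, taken over all probe sets, ran from 0.973 to 0.998, and by mean level over the probe sets the neuronal genes Snap25 and Syt1 stood at the 99.9 and 94.9 percentiles, the CA1 gene Wfs1 at 89.9 and the granule cell gene Prox1 at 44.1. The targeted genes did not separate the genotypes by a test: mutant minus control, averaged over treatments, was -0.09 to -0.12 for the 3 Creb1 probe sets (adjusted p = 0.63 for each, limma) and -0.29 and -0.25 for the 2 Crem probe sets (adjusted p = 0.141 and 0.286). The sources used here do not place these probe sets inside or outside the disrupted part. Arrays stood apart in 2 ways. Replicate 1 arrays of all 4 groups deviated together from their group means (correlations of 0.368 to 0.848 with each other, -0.722 to -0.00779 with the other replicates). The control kainate replicate 3 array had a narrower spread of values than the others, with an interquartile range of 3.74 against 4.40 to 4.61.

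Promoter sequence was at hand for 2 of the 6 genes, Ccn1, which rose after kainate in both genotypes, and Timp1, which had no difference that passed a test. Both are printed because they were at hand, and 2 windows cannot link a motif to a response. The lines give the 250 bases before the start of each gene, 5′ to 3′ on the gene's strand, from RefSeq on GRCm38.p6 (chr3:145649986-145650235, minus strand, for Ccn1 and chrX:20869916-20870165, plus strand, for Timp1), with motif matches in capitals.
Ccn1: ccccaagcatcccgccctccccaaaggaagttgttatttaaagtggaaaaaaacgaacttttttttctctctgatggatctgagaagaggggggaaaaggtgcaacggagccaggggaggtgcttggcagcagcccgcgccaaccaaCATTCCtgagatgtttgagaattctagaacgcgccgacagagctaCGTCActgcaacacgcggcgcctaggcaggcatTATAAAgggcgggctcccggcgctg
Timp1: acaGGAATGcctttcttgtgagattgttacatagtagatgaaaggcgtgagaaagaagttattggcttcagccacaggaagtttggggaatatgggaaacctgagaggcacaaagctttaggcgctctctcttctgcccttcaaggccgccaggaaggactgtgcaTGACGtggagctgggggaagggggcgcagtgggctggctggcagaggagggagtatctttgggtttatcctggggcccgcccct
Motifs were searched on both strands: the full cAMP response element (TGACGTCA), its core (TGACG, which the full element contains), the AP-1 site (TGANTCA), the TEAD site (GGAATG), the CArG box bound by serum response factor, and the TATA box (TATAAA). Neither window held the full cAMP response element, the AP-1 site or the CArG box, which occur in 1.55%, 6.75% and 1.47% of 32841 such windows. In Ccn1 the capitals mark, from left to right, a TEAD match on the minus strand (CATTCC, 103 to 98 bases upstream), a core on the minus strand (CGTCA, 58 to 54 bases upstream) and a TATA box 25 to 20 bases upstream. In Timp1 they mark a TEAD match (247 to 242 bases upstream) and a core (84 to 80 bases upstream). The core occurs in 17.8% of all windows, TEAD matches in 12.6% and TATA boxes in 12.4%, so that each is common. Both genes share the core and a TEAD match, and only the Ccn1 window holds a TATA box. These matches describe letters in the windows and are no evidence of binding.

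Ccn1 rose within 1 hour of kainate, 6.58-fold in hippocampi of mutants and 6.85-fold in those of controls. Ccn1, formerly Cyr61, is a secreted ligand of integrins that promotes adhesion, migration and the growth of vessels. Its log2 level was 6.39, 6.60 and 6.34 on the mutant kainate arrays and 3.80, 3.65 and 3.71 on the mutant saline arrays. It was 6.68, 6.56 and 6.42 on the control kainate arrays and 3.91, 3.65 and 3.79 on the control saline arrays. Kainate arrays of either genotype stood far above every saline array, and within a treatment the genotypes overlapped. The kainate effect was 2.72 ± 0.10 in mutants, or 6.58-fold (SE, n = 3 arrays a group, limma adjusted p = 1.4e-07), and 2.78 ± 0.10 in controls, or 6.85-fold (adjusted p = 1.13e-07). Mutants minus controls, the response differed by -0.06 ± 0.15, with a 95% confidence interval of -0.38 to 0.27 (adjusted p = 0.939). The interval leaves room for a response up to 0.38 weaker or 0.27 stronger in mutants. Genotype differences in level were -0.06 ± 0.10 under saline and -0.12 ± 0.10 under kainate (adjusted p = 1 and 0.542). In bulk tissue, more RNA per cell and more cells of an expressing type cannot be told apart.

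**Figure D1:**
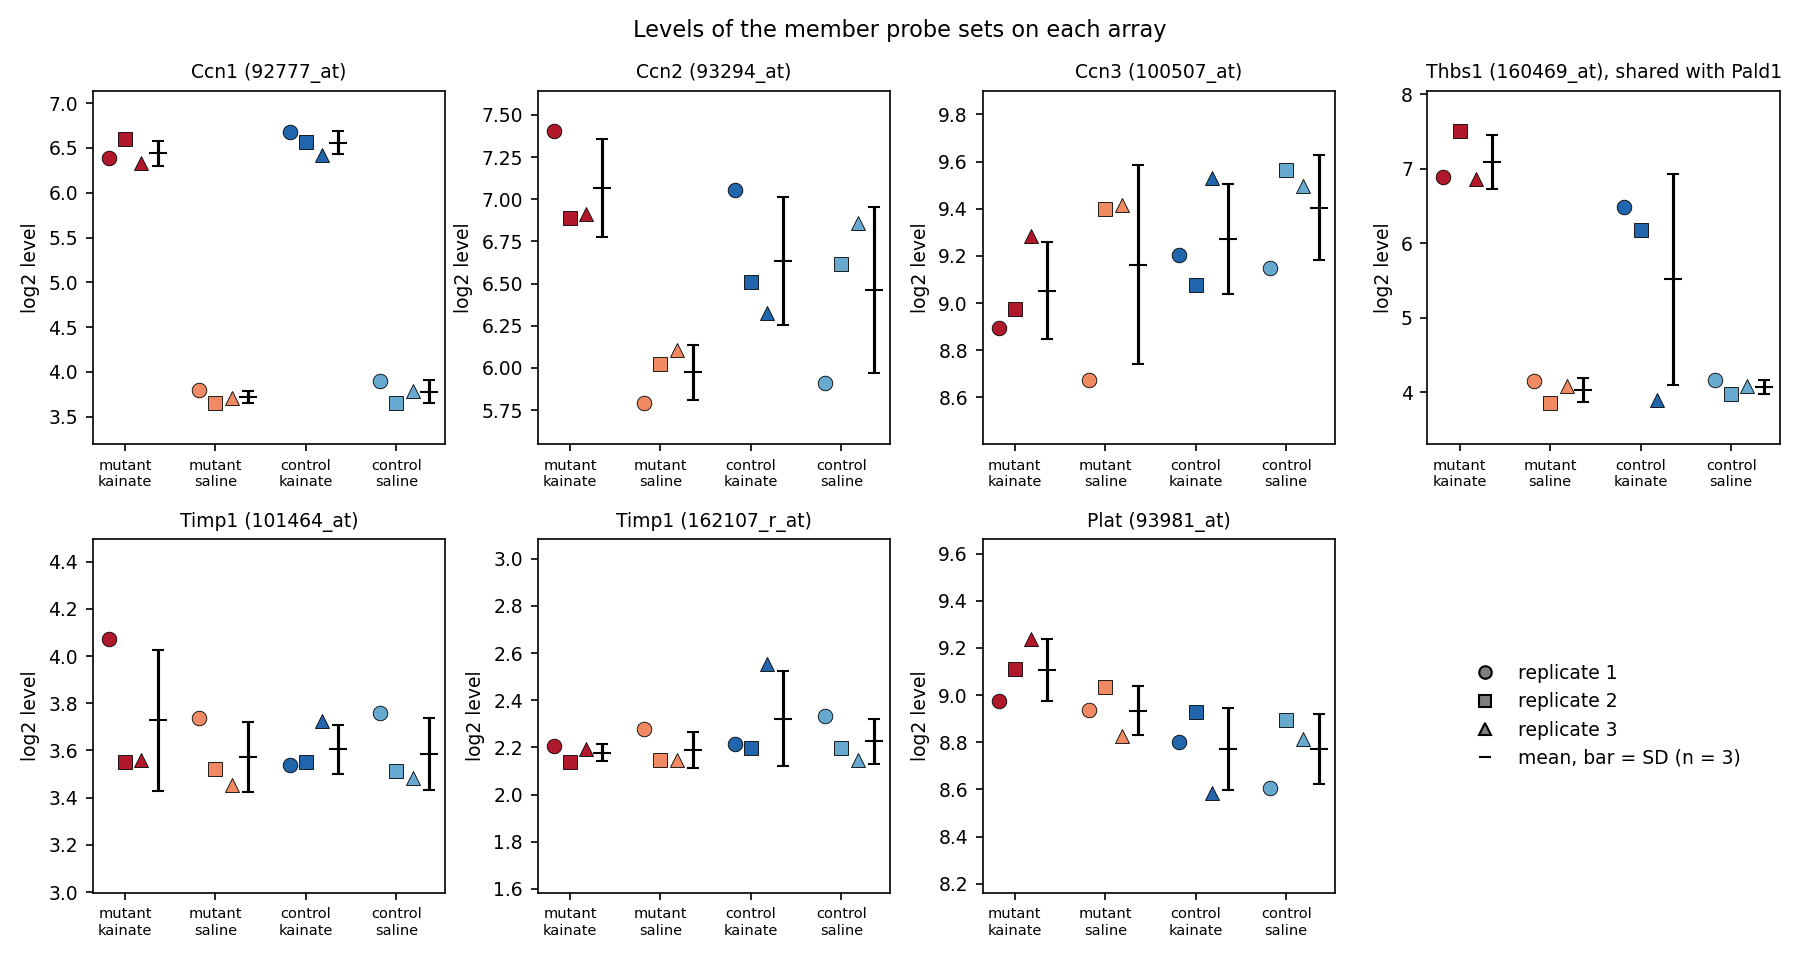
Log2 levels of the 7 member probe sets (vertical axes, each panel with its own scale) on the 12 arrays by group. Points are arrays, shaped by replicate number, and the bar beside each group is the mean ± SD (n = 3). Ccn1 separates kainate from saline arrays in both genotypes, and 1 control kainate array of the Thbs1 probe set lies at 3.89, among the saline arrays.

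The Thbs1 probe set also rose after kainate in mutants, and on 2 of the 3 control arrays it stood far above saline too. Thrombospondin 1 activates latent TGF-beta, holds back the growth of vessels and binds the receptors Cd36 and Cd47. Its level was 6.89, 7.50 and 6.86 on the mutant kainate arrays and 4.15, 3.85 and 4.08 on the mutant saline arrays. On the control kainate arrays it was 6.48, 6.17 and 3.89, and on the control saline arrays 4.16, 3.97 and 4.08. Mutant groups did not overlap, whereas control kainate replicate 3 lay below every control saline array, which made that group's SD 1.42, against 0.36 in mutant kainate, 0.16 in mutant saline and 0.09 in control saline arrays. The kainate effect was 3.06 ± 0.53 in mutants, or 8.34-fold (adjusted p = 0.0492), and 1.45 ± 0.53 in controls, or 2.73-fold (adjusted p = 0.575). Averaged over genotypes it was 2.25 ± 0.37 (adjusted p = 0.0199), a call kept in 13 of 21 alternatives, with adjusted p up to 0.0702.

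Control kainate replicate 3 decided both the size of the control effect and the error of the Thbs1 fit. Without that array the kainate effect was 3.06 ± 0.17 in mutants (adjusted p = 3.09e-05) and 2.26 ± 0.19 in controls (adjusted p = 0.000574), where it passed the test. The response difference, mutants minus controls, was 1.61 ± 0.75 with all arrays (95% confidence interval -0.04 to 3.27, adjusted p = 0.939) and 0.80 ± 0.26 without that array (adjusted p = 1). Neither value passed the test across all probe sets. Under kainate the level was 1.57 ± 0.53 higher in mutants (adjusted p = 0.53, unadjusted p = 0.0134), with all mutant above all control arrays. Under saline the genotypes differed by -0.04 ± 0.53. With all arrays the mutant call lay just inside the threshold: it was kept when control kainate replicate 1 or 3 was left out, and lost when any of the other 10 arrays was (adjusted p = 0.0546 to 0.254).

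That array was low for other kainate-induced probe sets as well, though seldom as low as for Thbs1. Of the 33 probe sets that rose in mutants, 24 had control kainate replicate 3 below both other control kainate arrays, and over all 33 its median difference from the mean of those 2 arrays was -0.27. It was at or below the highest control saline array for 2 of the 33, the Thbs1 probe set and Dnajb9, a chaperone of the endoplasmic reticulum. Dnajb9 was at 8.68, 9.28 and 8.67 on the control kainate arrays, with 8.75 on the highest control saline array, so that its gap to saline was far narrower. Ccn1 on the same array, at 6.42, was the lowest of its group and close to the other values of 6.68 and 6.56. How many of all probe sets had that array lowest of its group was not counted, and its spread of values was narrower than on other arrays. Whether that array's processing or its animals have a part in the Thbs1 value was not tested.

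**Figure D2:**
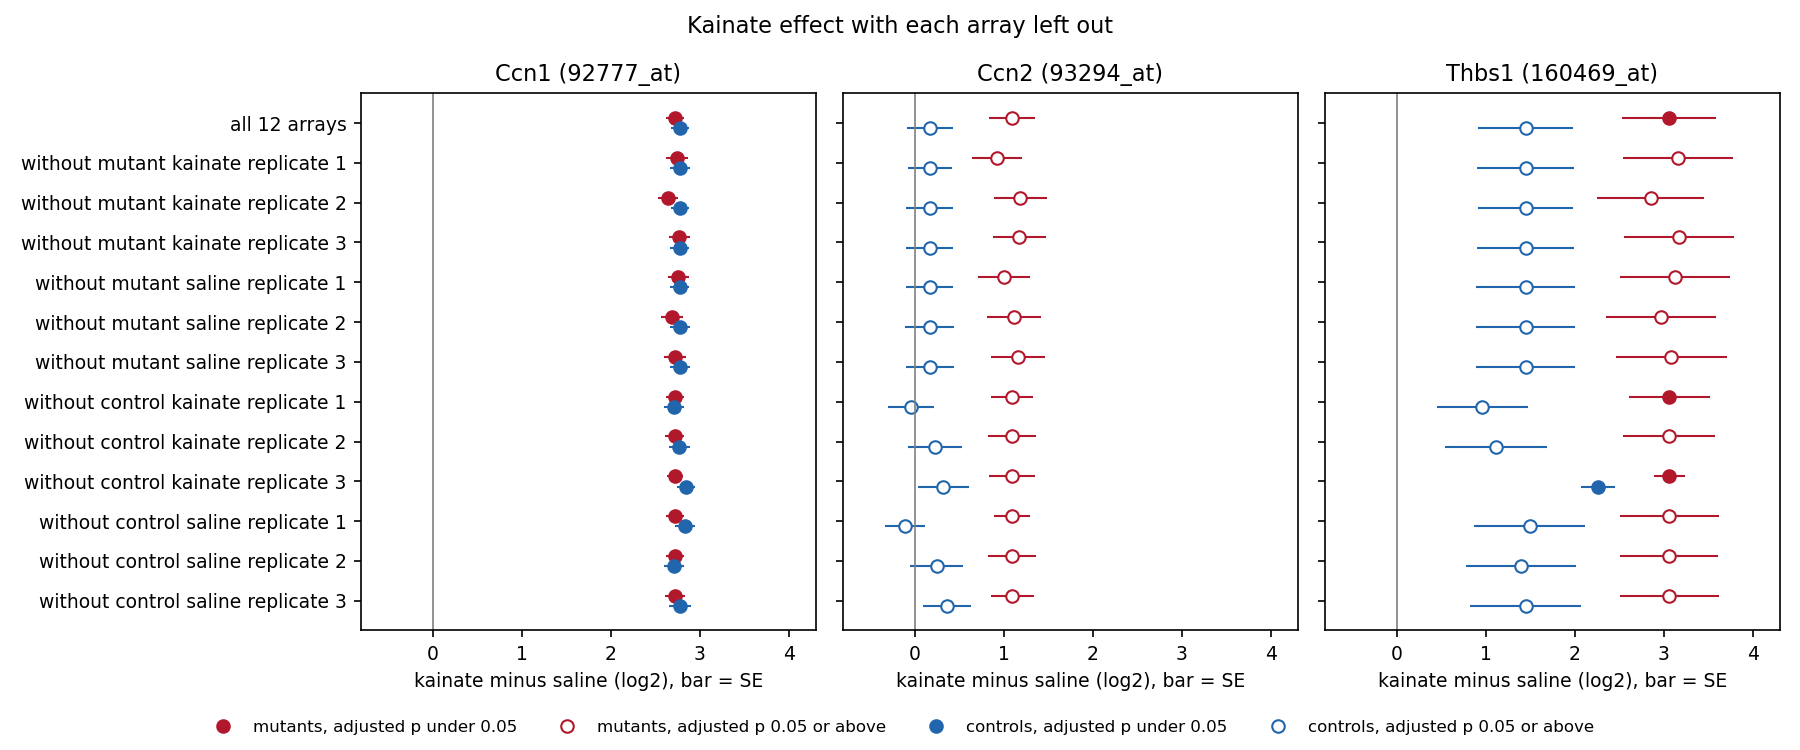
Kainate minus saline difference (log2, bars are SE) of Ccn1, Ccn2 and the Thbs1 probe set in mutants and controls, with all 12 arrays and with each array left out in turn. Filled points passed the test (limma, adjusted p under 0.05): Ccn1 passed in every fit, Ccn2 in none, and Thbs1 in controls only without control kainate replicate 3, where its effect was 2.26.

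Ccn2 gave a smaller and less even difference. Ccn2, also called connective tissue growth factor, works beside TGF-beta to promote matrix production. Its level was 7.40, 6.89 and 6.91 on the mutant kainate arrays and 5.79, 6.02 and 6.10 on the mutant saline arrays. On control kainate arrays it was 7.06, 6.51 and 6.33, against 5.91, 6.62 and 6.86 on control saline arrays. Mutant groups stood apart, control groups overlapped, and 2 of the 3 control saline arrays lay above 2 of the 3 control kainate arrays. The kainate difference was 1.10 ± 0.26 in mutants, or 2.14-fold (unadjusted p = 0.00154, adjusted p = 0.252), and 0.17 ± 0.26 in controls (adjusted p = 0.75), so neither passed the test. The response difference was 0.93 ± 0.37, with a 95% confidence interval of 0.12 to 1.73 that is not adjusted for the number of probe sets (adjusted p = 0.939).

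The difference in Ccn2 varied with the replicate number. Kainate minus saline within a number was 1.61, 0.87 and 0.81 for replicates 1, 2 and 3 of the mutants, and 1.15, -0.11 and -0.53 for replicates 1, 2 and 3 of the controls. Replicate 1, whose arrays stood apart over all probe sets, had the widest difference in both genotypes. Over replicates 2 and 3 alone the difference was 0.84 ± 0.13 in mutants (adjusted p = 0.0472) and -0.32 ± 0.13 in controls (adjusted p = 0.281). With limma's array weights the mutant difference was 0.95 ± 0.14 (adjusted p = 0.00259), and it did not pass in the other 19 of 21 alternatives. The genotype difference in Ccn2 level was -0.49 ± 0.26 under saline and 0.44 ± 0.26 under kainate, neither past the test.

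Ccn3 showed no difference that passed. Ccn3, first named Nov, is a CCN protein that restrains growth in many cell types. Its level ranged from 8.90 to 9.29 on mutant kainate, 8.68 to 9.41 on mutant saline, 9.08 to 9.53 on control kainate and 9.15 to 9.57 on control saline arrays, and all 4 groups overlapped. The kainate difference was -0.11 ± 0.21 in mutants and -0.13 ± 0.21 in controls. The 95% confidence intervals were -0.58 to 0.36 in mutants and -0.60 to 0.34 in controls. Averaged over treatments, mutants minus controls was -0.23 ± 0.15 (adjusted p = 0.63).

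Timp1, which binds and blocks metalloproteinases, had a narrow range on both of its probe sets. On the brighter probe set its level was 4.07, 3.55 and 3.56 on mutant kainate arrays and 3.74, 3.52 and 3.45 on mutant saline arrays. Control kainate arrays had 3.54, 3.55 and 3.72, and control saline arrays 3.76, 3.51 and 3.48. A single array, mutant kainate replicate 1, stood above the rest, and the groups overlapped. Kainate minus saline was 0.16 ± 0.15 in mutants (95% confidence interval -0.17 to 0.48) and 0.02 ± 0.15 in controls (-0.31 to 0.35). The dimmer probe set lay between 2.14 and 2.55 on all arrays, at the 11.9 percentile of mean level. Its values over the 12 arrays correlated above 0.99 with those of 1419 other probe sets, whose median level percentile was 14.4, and its highest value was on control kainate replicate 3. No difference of either probe set passed the test.

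Plat, the protease that activates plasminogen, had no kainate difference that passed and lay slightly higher in mutants, short of the test. Its level was 8.97, 9.11 and 9.24 on mutant kainate arrays and 8.94, 9.04 and 8.83 on mutant saline arrays. It was 8.80, 8.93 and 8.59 on control kainate arrays and 8.61, 8.89 and 8.81 on control saline arrays. Under kainate every mutant array lay above every control array, and under saline the genotypes overlapped. Mutants minus controls was 0.33 ± 0.12 under kainate (unadjusted p = 0.0165, adjusted p = 0.53) and 0.25 ± 0.08 averaged over treatments (adjusted p = 0.433). The kainate difference was 0.17 ± 0.12 in mutants and 0.00 ± 0.12 in controls, with intervals of -0.09 to 0.43 and -0.26 to 0.26.

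**Figure D3:**
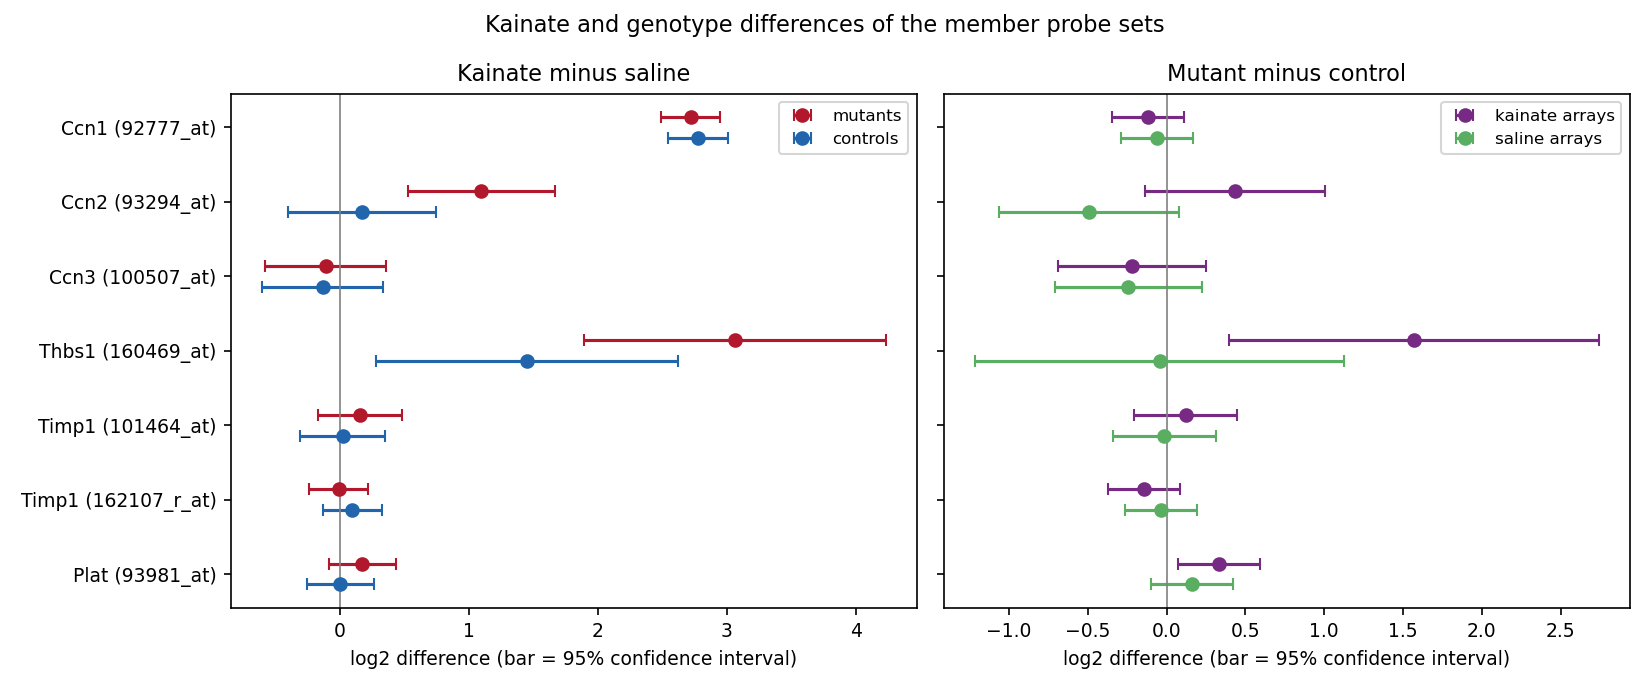
Kainate minus saline differences in mutants and controls (left) and mutant minus control differences under kainate and saline (right) for the 7 member probe sets, in log2 with 95% confidence intervals that are not adjusted for the number of probe sets. Ccn1 differences of 2.72 and 2.78 have narrow intervals, while those of the Thbs1 probe set, 3.06 and 1.45, are the widest.

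Set beside all probe sets, the members' calls were as follows. In mutants 2 of 7 member probe sets rose after kainate, where 0.266% of all probe sets did, and 3 of 7 had all kainate above all saline arrays, against 4.98% of all. In controls 1 of 7 rose, against 0.282%, and 1 of 7 stood apart, against 2.29%. Averaged over genotypes 2 of 7 rose, against 0.531%. Since the members were picked with these responses known, the shares show how rare such calls are and nothing more. No member passed for the difference in response, where 0% of all probe sets passed and 107 had an unadjusted p under 0.05. None passed for genotype under saline, where 0.137% did (17 probe sets, or 30 with the replicate number as a block), under kainate, where 0.354% did (44, or 67 with that block), or averaged over treatments, where 0.612% did. Under kainate 2 of 7, the Thbs1 probe set and Plat, had all mutant above all control arrays, against 4.03% of all.

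The probe sets most like each member over the 12 arrays were named by Pearson correlation, as a description, since all share the same 12 arrays. For Ccn1 and the Thbs1 probe set much of the spread lies between the treatments. Closest to Ccn1 were Egr2 (r = 0.996), Dusp1 (0.995), Btg2 (0.995), Fosb (0.993) and Junb (0.991). Egr2, a zinc finger transcription factor, differed by 4.76 in mutants and 4.75 in controls, and was at 10.95 on control kainate replicate 3, near the 11.11 and 11.33 of the other control kainate arrays. The group around the Thbs1 probe set was another: Nfkbiz (0.968), Sertad1 (0.95), Ier3 (0.94), Zfp36l2 (0.933) and Jun (0.923). Each of those 5 was lowest, among control kainate arrays, on replicate 3. Nfkbiz, which encodes a nuclear regulator of NF-kappa B, was at 6.68, 7.26 and 4.48 on control kainate arrays, and its kainate effect was 3.93 in mutants (adjusted p = 0.011) and 2.57 in controls (adjusted p = 0.147). The likeness to Thbs1 thus includes the array that stood low. Ccn2 was closest to 2410002F23Rik (0.909), Acta1 (0.88) and Noct (0.862), Ccn3 to Prkcz (0.863), Timp1 to Gabrd (0.96) and Plat to Prdx4 (0.949). The Timp1 probe set used was at the 40.8 percentile of mean level. On control kainate arrays Gabrd was at 3.015 to 3.299 and Prkcz at 2.449 to 3.566. Likeness that involves such low values carries little meaning.

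None of the other measured genes of the CCN and thrombospondin families passed the test for kainate. Ccn4 and Ccn5, the 2 of 3 other CCN genes measured, differed by 0.04 and 0.06 between kainate and saline averaged over genotypes. Thbs2 and Thbs3, the 2 of 4 other thrombospondins measured, differed by -0.02 and 0.03. These probe sets were dim, at the 36.8 to 47.3 percentiles of mean level, where a small difference does not show that a gene did not respond. None of 12 other matricellular genes passed, with a median of -0.01, where all 8251 genes had a median of 0.02 with 52 higher and 38 lower. Widest among those 12 were Fbln2, a fibulin of the basement membrane, at 0.27 ± 0.07 (adjusted p = 0.131) and Smoc2 at -0.24 ± 0.11 (adjusted p = 0.42). Lgals1, a galectin that binds matrix sugars, was 0.53 ± 0.10 higher in mutants averaged over treatments, just short of the test (adjusted p = 0.0544).

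Of 15 receptor genes for CCN proteins and thrombospondins none passed for kainate, and 1, Itgb5, was higher in mutants than in controls. Itgb5 pairs with the alpha V integrin chain in a receptor that binds Ccn1. Its level was 7.88, 7.99 and 8.11 on mutant kainate and 7.89, 7.96 and 8.02 on mutant saline arrays. Control kainate arrays had 7.32, 7.35 and 7.58, and control saline arrays 7.25, 7.59 and 7.45. All 6 mutant arrays lay above all 6 control arrays, by 0.55 ± 0.08 averaged over treatments (adjusted p = 0.00968), and the call was kept when any 1 array was left out, but lost with quantile normalisation and with replicates 2 and 3 alone (adjusted p up to 0.143 over 21 alternatives, 19 of which kept it). A dimmer Itgb5 probe set differed by 0.04 (adjusted p = 0.872). Widest for kainate were Itgb2 at 0.47 (adjusted p = 0.267) and Lrp6, a Wnt co-receptor, at -0.45 (adjusted p = 0.197).

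Among 14 genes of TGF-beta signalling, on which thrombospondin 1 and Ccn2 act, Smad7 passed for kainate averaged over genotypes. Smad7 is the inhibitory Smad that shuts the TGF-beta receptor off. Its level was 7.44, 7.14 and 7.06 on mutant kainate and 6.14, 6.17 and 6.30 on mutant saline arrays. Control kainate arrays had 7.55, 7.28 and 6.39, and control saline arrays 6.52, 6.24 and 6.22. Mutant groups stood apart, and control kainate replicate 3 again lay within the control saline range. The averaged effect was 0.88 ± 0.17 (adjusted p = 0.047), and it passed only without control kainate replicate 1 or 3 when arrays were left out in turn, with adjusted p up to 0.145 for the other 10, and was lost with median centring and with replicates 2 and 3 alone. The serum response factor and YAP axis controls Ccn1 and Ccn2 in many cell types. Of 22 genes listed for it 19 were measured, without Srf itself, and none of the 19 passed for kainate. Widest of these was Acta2, smooth muscle actin, at 0.70 ± 0.23 (adjusted p = 0.22). The list leaves out the genes closest to Ccn1, such as Egr2, which differed by 4.76 in mutants and 4.75 in controls. It therefore does not show that genes under this axis failed to respond.

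No measured gene of the proteolytic system passed the test for kainate, the members Plat and Timp1 included. None of 14 genes of plasminogen activation and of related serine proteases, inhibitors and receptors passed for kainate (median -0.04). Widest of these was S100a10, a plasminogen receptor subunit, at -0.67 ± 0.25 (adjusted p = 0.3). Prss12, a neuronal serine protease named neurotrypsin, was 0.66 ± 0.13 higher in mutants averaged over treatments (adjusted p = 0.0532). None of 20 metalloproteinase genes passed (median 0.04). The widest was Mmp16, at -0.71 ± 0.41 (adjusted p = 0.615), while Mmp9 differed by 0.06 ± 0.07. Mean levels in this list ran from the 10.3 percentile for Adam17 to the 89.2 percentile for Adam10. Mmp9 was at the 38.3 percentile, and for such dim probe sets a small difference does not show that the gene did not respond. Of the 4 other metalloproteinase inhibitors measured, Timp2 was widest for kainate at -0.57 ± 0.14 (adjusted p = 0.119), and none passed.

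**Figure D4:**
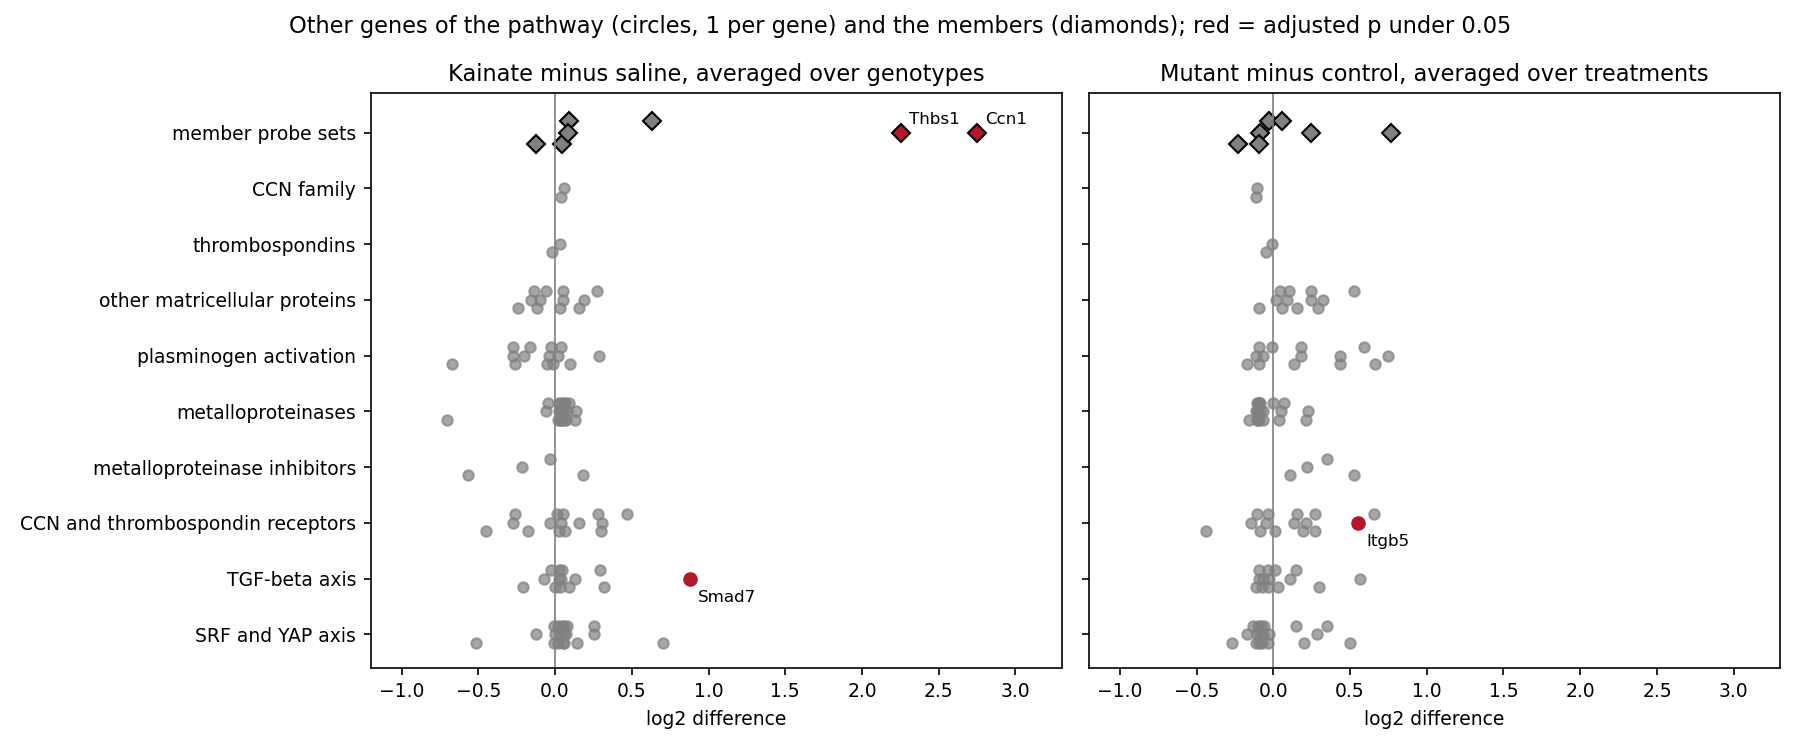
Differences (log2) of the member probe sets (diamonds) and of the other measured genes of the pathway (circles, 1 probe set per gene) for kainate averaged over genotypes (left) and for genotype averaged over treatments (right), by list. Red symbols passed the test (limma, adjusted p under 0.05): Ccn1, Thbs1 and Smad7 on the left, at 2.75, 2.25 and 0.88, and Itgb5 on the right, at 0.55.

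Markers of cell types that can express the members were set beside these results. None of 6 pericyte and smooth muscle, 9 meningeal and fibroblast or 3 choroid plexus markers passed for kainate or genotype. The choroid plexus markers had a median kainate difference of -0.85 in controls and -0.13 in mutants. The part of these cell types in the members' values was not tested. None of 8 endothelial markers passed for kainate, but their mean level was 5.63 to 5.81 on mutant kainate and 5.53 to 5.55 on mutant saline arrays, and 5.47 to 5.60 on control kainate and 5.42 to 5.45 on control saline arrays. Within each genotype these ranges did not overlap, though Vwf and Flt1 were lower with kainate averaged over genotypes (-0.19 and -0.11). The mean of the 3 blood markers also stood apart in both genotypes. It was 5.75 to 5.94 on mutant kainate against 5.41 to 5.69 on mutant saline arrays. On control kainate arrays it was 5.67 to 5.85, against 5.54 to 5.62 on control saline arrays. How often the mean of a list stands apart in this way was not counted. Of 3 blood markers, Hba-a1, a haemoglobin chain, rose by 0.53 ± 0.10 with kainate averaged over genotypes (adjusted p = 0.0372), a call kept, when arrays were left out in turn, only without replicate 1 of mutant kainate, mutant saline or control kainate (adjusted p up to 0.114 for the other 9). The part of vessels or blood in the Ccn1 and Thbs1 values was not tested. In mutants relative to controls, averaged over treatments, 7 of 10 microglia markers rose (median 0.87), among them Tyrobp by 1.76 ± 0.12. Of the microglia markers that passed, Laptm5 has a dimmer probe set that also passed (0.72, adjusted p = 0.0429). Dimmer probe sets of Csf1r (-0.08, adjusted p = 0.761) and C1qb (-0.04, adjusted p = 0.661) did not. Of 6 astrocyte markers 1 passed, Gfap, which rose by 1.62, and the list's median was 0.19. A dimmer Gfap probe set rose by 1.36, short of the test (adjusted p = 0.0574). Of 7 neuron markers 1 passed, Wfs1, which fell by 1.04, and the list's median was -0.24. Snap25 differed by 0.07, Neurod1 by 0.20 and Syt1 by -0.24. The mean level of the 7 was 7.979 to 8.155 on mutant saline and 8.313 to 8.481 on control saline arrays. It was 7.87 to 8.001 on mutant kainate and 8.036 to 8.401 on control kainate arrays, so that in both treatments it was lower in mutants. That mean includes Wfs1, which differed by -1.14 under saline and -0.94 under kainate, whereas Snap25 and Neurod1 went the other way averaged over treatments. The share of lists whose mean stands apart by genotype was not counted. These values stand beside the genotype differences of Itgb5 and Plat, and their part in them was not tested.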

How the data were processed

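RNA from pools of 3 animals was measured on 12 arrays, 3 in each of 4 groups. The authors deposited log2 values, for which the submitters' processing notes name GCRMA and R 2.4.1; which GCRMA version was used, and whether on all arrays at once, is not given in the sources used here. GCRMA subtracts background, normalises between arrays and summarises each probe set, so that low values lie close together and small differences among dim probe sets carry little meaning. Arrays give no counts, and their number limits the precision.

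The table held 12488 probe sets. Without the 66 controls there were 12422, all tested whatever their level. The platform annotation gave 10833 of them 1 symbol, 396 several and 1193 none. limma 3.58.1 in R 4.3.3 fitted 1 mean per group to all 12 arrays (degrees of freedom: 8 residual, 2.48 prior). Two-sided p values were adjusted by Benjamini and Hochberg over all 12422 probe sets, with a threshold of 0.05; errors are standard errors. Positive differences mean higher with kainate or in mutants. The procedure was tested on simulated data with known changes.

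The members, gene lists and marker lists were chosen with earlier results of these data known. Named were all member probe sets, listed genes that passed or differed most (1 probe set per gene, the one with the highest mean), and for each member up to 5 single-symbol probe sets of other genes with the highest Pearson correlation over 12 arrays, among those above the 25th percentile of level. The alternatives were the replicate number as a block, replicate 1 against the others as a batch term, quantile normalisation, centring on medians, a trend of variance on intensity with a robust prior, only probe sets above the median level, array weights estimated gene by gene, and leaving out each of 12 arrays. A further 2 were added after seeing the data. Arrays of the same number deviated together from their group means in the kainate comparison of mutants (correlations of 0.408 to 0.625). They also did so in the genotype comparisons under saline (0.583 to 0.848) and kainate (0.315 to 0.745). In the kainate comparison of controls replicates 1 and 2 deviated together (0.368 and 0.4), and replicate 3 did not (-0.0109).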

Additional observations from a re-analysis of the deposited data

How the results depend on the processing

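The Ccn1 rise passed in all 21 alternatives, at 2.64 to 2.78 in mutants and 2.71 to 2.95 in controls, and no value past the threshold changed sign. The Thbs1 rise in mutants passed in 7 of 21. It was lost with quantile normalisation (adjusted p = 0.139), median centring (0.137), the trend and robust prior (0.0603) and replicates 2 and 3 alone (0.0816), and kept with the replicate block (0.0341). Averaged over genotypes it passed in 13 of 21. It was lost with quantile normalisation (adjusted p = 0.0634) and median centring (0.063), and without control saline replicates 2 or 3, control kainate replicate 2, mutant saline replicates 2 or 3, or mutant kainate replicate 2 it did not pass (adjusted p = 0.0547 to 0.0702). In controls it passed in 3 of 21: without control kainate replicate 3, with array weights (2.31, adjusted p = 0.000432), and without that array plus the replicate 1 batch term (2.25, adjusted p = 0.00136). Differences of the other members crossed the threshold in 1 or 2 alternatives: Ccn2 as given, and with array weights Ccn2 averaged over genotypes (0.55, adjusted p = 0.00958) and between genotypes under saline (-0.60, adjusted p = 0.0232), and Ccn3 averaged over genotypes (-0.32, adjusted p = 0.0362). Timp1 has no value among probe sets above the median level.

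Counts of probe sets past the threshold moved more with the settings, and the cause was not tested. With 1 array left out they ranged from 26 to 51 for kainate in mutants (37 with all arrays), 27 to 56 in controls (41), 52 to 284 averaged over genotypes (117), 0 to 5 for the difference in response (0), 8 to 20 for genotype under saline (17), 12 to 38 under kainate (44) and 41 to 103 averaged over treatments (76). The replicate block gave 245 for averaged kainate, 30 for genotype under saline, 67 under kainate and 124 averaged, and changed no member's call. The replicate 1 batch term gave 64 for kainate in mutants, 333 averaged, 38 for genotype under saline, 77 under kainate and 140 averaged. Median centring gave 62 for averaged kainate and 20 for genotype under kainate. Array weights gave 1619, 380 and 2036 for kainate in mutants, in controls and averaged, 8 for the difference in response, and 680, 99 and 478 for genotype under saline, under kainate and averaged. Among the alternatives chosen after seeing the data, replicates 2 and 3 alone gave 94, 146 and 778 for kainate and 2, 10 and 47 for genotype in the same order. Without control kainate replicate 3 and with the batch term there were 173, 79 and 572 for kainate, 6 for the difference in response, and 70, 73 and 255 for genotype. With 3 pools a group, a p above the threshold does not show that a member did not change.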
